A study of Mus musculus with 36 samples.

Results

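Pax5 K198R, a form of the transcription factor Pax5 in which 1 lysine is replaced by arginine as a mimic of the deacetylated state, was compared with an empty vector (EV) in mouse pro-B cells whose genotype is Pax5-/-. Genes were included when at least 2 of the 4 libraries, 2 with EV and 2 with K198R, held 10 or more normalized counts, and 12893 of the 35896 genes of the table met this rule. The 4 libraries are part of 36 samples. All of these cells were labelled as primary bone marrow pro-B cells, whereas the study's methods describe progenitors of fetal livers, and they carried the Pax5-/- genotype. They grew on OP9 stromal cells, which had been inactivated with mitomycin C, in 10 ng/ml each of IL-7, SCF and FLT3-L. The controls thus carried the Pax5-/- genotype as well and received a retrovirus without Pax5. The same table holds 2 libraries with unmutated Pax5 (WT) and 2 with K198Q, in which glutamine mimics the acetylated lysine. Polyadenylated RNA was sequenced, and the libraries summed to 29380367 and 29733473 normalized counts with EV and to 29329369 and 30520853 with K198R. Mitochondrial genes took 2.49% and 2.93% of these sums with EV and 3.51% and 3.39% with K198R, the highest of the 8 libraries of the table, and the part of this in the results was not tested. A separate table is used for cultured Sirt7-/- pro-B cells with EV and with K198R and for wild-type cells with EV, 2 libraries each. GEO's labels number the 2 libraries of a group and name no mouse, so that p-values measure the spread between libraries only. In the fit of Pax5-/- cells each gene has 1 estimate of this spread over all 4 groups. The WT and K198Q libraries thus enter each standard error and p-value of K198R against EV.

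Pax5 is a paired-domain transcription factor that commits lymphoid progenitors to the B lineage. It activates genes of the pre-B cell receptor and of B cell receptor signalling, and it represses genes that belong to T cells, natural killer (NK) cells and myeloid cells. Pro-B cells without Pax5 stop before the pre-B stage, can be kept in culture with IL-7 and retain the ability to form other blood lineages.

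The Pax5 transcript itself (chr4:44524757-44710487, minus strand, GRCm38) was measured first, since the vector delivers it. It had 2201 and 2103 normalized counts with EV and 21162 and 16609 with K198R. Both K198R libraries lay far above both EV libraries, with a log2 fold change of 3.12 ± 0.12 (SE, n = 2 libraries a group, limma on log2(normalized count + 1), adjusted p = 1.78e-05). The EV libraries were not free of Pax5 reads, and the origin of these reads was not tested. WT libraries held 6458 and 6152 and K198Q libraries 8918 and 8963 normalized counts, both below K198R, so that each comparison of K198R with another form below is also a comparison of unequal amounts of the transcript. Sirt7, which encodes the deacetylase studied, had 2382 and 2126 with EV and 1937 and 1645 with K198R, which did not pass the test (log2 fold change -0.33, adjusted p = 0.194).

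Defining genes of pro-B cells were present in all 4 libraries. Ebf1, a factor that acts beside Pax5, had 2760 and 3007 with EV and 6726 and 7875 with K198R, and Igll1, the lambda5 part of the surrogate light chain, had 9646 and 13144 with EV and 25624 and 27194 with K198R. Dntt, the enzyme that adds bases at V(D)J joints and a usual mark of pro-B cells, was below the filter, at 3.62 and 1.85 with EV and 12.5 and 4.96 with K198R. The 2 K198R libraries stood further apart than those of the other groups. Of 10966 genes with enough counts to compare, 480 (4.38%) differed by more than 2-fold between them, against 2.0% between the EV libraries, 2.21% between WT and 1.69% between K198Q. The distance between the K198R replicates over all genes, on the log2 scale, was 68.7, against 56.4 for EV, and the distance between the means of EV and K198R was 89.5.

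Genes passed the test in both directions with Pax5 K198R. A gene was called when its adjusted p was under 0.05 and its log2 fold change was 1.5 or more in size. Of the 12893 genes, 186 (1.44%) were called higher and 413 (3.2%) lower with K198R. By list, 4 of 18 genes of the pre-B cell and B cell receptors were called higher and 0 lower, and 8 of 11 tested NK genes, 5 of 21 T lineage genes and 5 of 16 myeloid genes were called lower. Without the fold threshold 511 (3.96%) were higher and 804 (6.24%) lower. The median fold of the called genes, on the log2(normalized count + 1) scale, was 6.67 for those higher and 4.95 for those lower, and the median log2 fold change of all genes was 0.01. All called genes had groups that did not overlap, which by itself was true of 23.7% of all genes in the upward and of 23.3% in the downward direction. Many calls joined a group with almost no reads, since both EV libraries were under 10 normalized counts for 53 of the 186 and both K198R libraries for 86 of the 413. Such genes met the rule of 10 normalized counts through the other group alone, so that their difference is in part fixed by the rule. Genes called lower were mostly lowest in K198R replicate 2, where 346 of the 413 (83.8%) were below replicate 1, against 45.2% of the genes called higher and 52.9% of all genes. The count of genes called lower was 188 without EV replicate 1, 210 without EV replicate 2 and 244 without K198R replicate 2, of which 231 were among the 413. The plot of all genes by level shows the calls in both directions.

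**Figure D1:**
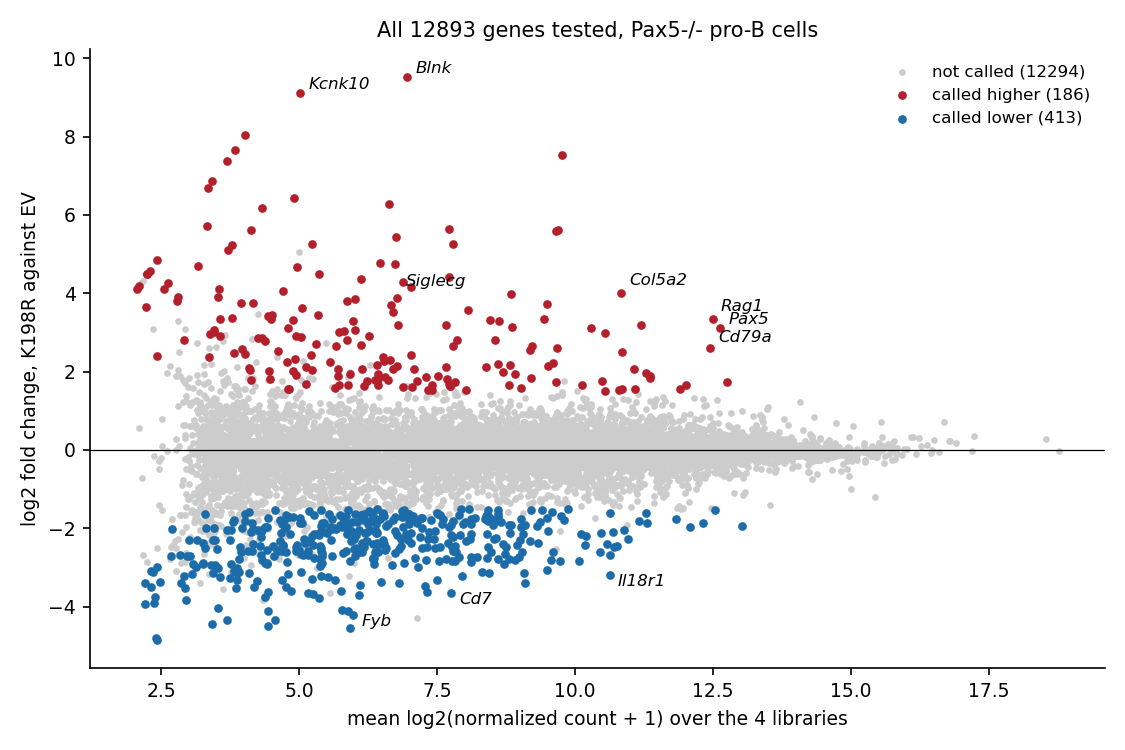
Log2 fold change of K198R against EV (vertical axis) by mean log2(normalized count + 1) over the 4 libraries (horizontal axis), 1 point a gene, for 12893 genes in Pax5-/- pro-B cells. Red points are the 186 genes called higher, with Blnk at 9.51 and Kcnk10 at 9.11, and blue points the 413 called lower, with Fyb at -4.21 and Cd7 at -3.64.

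Among genes of the pre-B cell receptor and of B cell receptor signalling, all calls were upward. Of 18 such genes, all of which were tested, 4 were called higher and 0 lower, 11 passed the adjusted p upward and 0 downward, and the median log2 fold change was 0.78 against 0.01 over all genes. Blnk, the adaptor that links the receptor to its downstream enzymes (chr19:40928927-40994535), had 2.56 and 4.90 with EV and 3586 and 3133 with K198R. Blnk was nearly silent in each EV library and high in each K198R library, with a log2 fold change of 9.51 ± 0.27 (adjusted p = 1.02e-05). Blnk met the rule of 10 normalized counts through the K198R libraries alone, so that its rise is in part fixed by the rule. Cd79a, a signalling chain of the receptor (chr7:24897381-24902197), had 2282 and 2247 with EV and 13596 and 14080 with K198R. Vpreb3, which encodes a protein related to the surrogate light chain, had 733 and 813 with EV and 7165 and 6959 with K198R. The replicates of these genes lay close together and the groups far apart, with log2 fold changes of 2.61 ± 0.11 (adjusted p = 2.77e-05) for Cd79a and 3.19 ± 0.12 (adjusted p = 1.78e-05) for Vpreb3.

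The surrogate light chain genes proper rose by less. Igll1, given above, changed by 1.23 on the log2 scale (adjusted p = 0.00228), Vpreb1 by 0.89 (adjusted p = 0.00823) and Vpreb2 by 0.93 (adjusted p = 0.0185), and since Vpreb1 and Vpreb2 are near-identical, how their reads were divided is uncertain. Ighm, the heavy chain constant region, had 35821 and 39098 with EV and 61438 and 62013 with K198R, a log2 fold change of 0.72 (adjusted p = 0.00376). Cd79b, the partner of Cd79a, rose by 0.83 (adjusted p = 0.00235), the kinase gene Btk by 0.71 (adjusted p = 0.00287) and the inhibitory receptor gene Cd22 by 1.10 (adjusted p = 0.0179). The kinase genes Syk, Blk and Lyn and the coreceptor gene Cd72 did not pass, with log2 fold changes of -0.28, -0.06, -0.47 and -0.69. At an unadjusted p under 0.05, 11 of the 18 genes were higher and 2 lower, against 10.2% and 13% of all genes.

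Peaks of Pax5 K198R in a chromatin immunoprecipitation with an antibody to Pax5, described in full further on, lay at several of these genes. The 121 bases around the summit of the strongest peak in the gene or the 2 kb before it are printed (GRCm38, read on the strand of the gene). Only peaks found in both replicates whose window held no annotated UTR were used. The genes are Blnk and Cd79a, which were called higher, and Igll1, which passed the adjusted p without reaching the fold threshold. Capitals would mark the letters GCGTGAC, part of the recognition sequence of Pax5, on either strand, and none of these 3 windows holds them. Enrichment over input at the summit was 20.4- and 23.1-fold in the 2 replicates for Blnk, 10.5- and 8.46-fold for Cd79a and 29.2- and 28.6-fold for Igll1.
Blnk intron, chr19:40963087-40963207, minus strand: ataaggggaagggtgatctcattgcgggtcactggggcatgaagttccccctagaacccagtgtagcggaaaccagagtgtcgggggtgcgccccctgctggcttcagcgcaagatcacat
Cd79a upstream, chr7:24896391-24896511, plus strand: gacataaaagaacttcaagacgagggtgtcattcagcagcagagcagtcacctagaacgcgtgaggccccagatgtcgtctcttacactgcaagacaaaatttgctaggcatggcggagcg
Igll1 upstream, chr16:16864089-16864209, minus strand: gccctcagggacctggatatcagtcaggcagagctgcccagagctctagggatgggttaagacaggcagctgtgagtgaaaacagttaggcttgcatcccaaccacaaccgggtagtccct

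Recombinase and transcription factor genes of early B cells changed in the same comparison. Rag1, a subunit of the V(D)J recombinase, had 1443 and 2289 with EV and 18291 and 18398 with K198R, and Rag2, its partner, had 195 and 298 with EV and 1405 and 1413 with K198R. Both rose in each library, by 3.33 ± 0.20 (adjusted p = 0.00014) and 2.54 ± 0.21 (adjusted p = 0.000659) on the log2 scale, and they were the 2 genes called of 12 tested for V(D)J recombination and end joining, whose median was 0.20. Among 18 transcription factors of early B cells, 2 were called higher and 1 lower, 8 passed the adjusted p upward and 1 downward, and the median was 0.78. Ikzf3, which encodes Aiolos and is raised at the pre-B stage, had 123 and 127 with EV and 1272 and 1201 with K198R, a 9.82-fold difference with no overlap (log2 fold change 3.30 ± 0.14, adjusted p = 2.58e-05). Irf4, a factor of light chain rearrangement, had 1520 and 768 with EV and 4095 and 2470 with K198R, a log2 fold change of 1.56 ± 0.38 (adjusted p = 0.0415). The groups of Irf4 did not overlap but its replicates were uneven, and the call was lost without K198R replicate 1 (1.19, adjusted p = 0.13) and without EV replicate 2 (1.065, adjusted p = 0.185).

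Ebf1 rose by 1.34 (adjusted p = 0.000887), Foxo1, a factor that drives the Rag genes, by 1.25 (adjusted p = 0.000241), and the ETS factor gene Erg by 1.24 (adjusted p = 0.00113). Smaller increases were found for Spib (0.92), Bach2 (0.85) and the coactivator gene Pou2af1 (0.72), with adjusted p-values of 0.0249, 0.00374 and 0.0231. Klf2, a factor of quiescent lymphocytes, fell instead, from 314 and 397 with EV to 76.7 and 69.0 with K198R (log2 fold change -2.26 ± 0.28, adjusted p = 0.0031). Tcf3, Ikzf1 and Myb, which encode E2A, Ikaros and c-Myb, had log2 fold changes of 0.06, 0.06 and 0.07, none past the test. The plot of B lineage genes by library and form shows these values beside those of WT and K198Q.

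**Figure D2:**
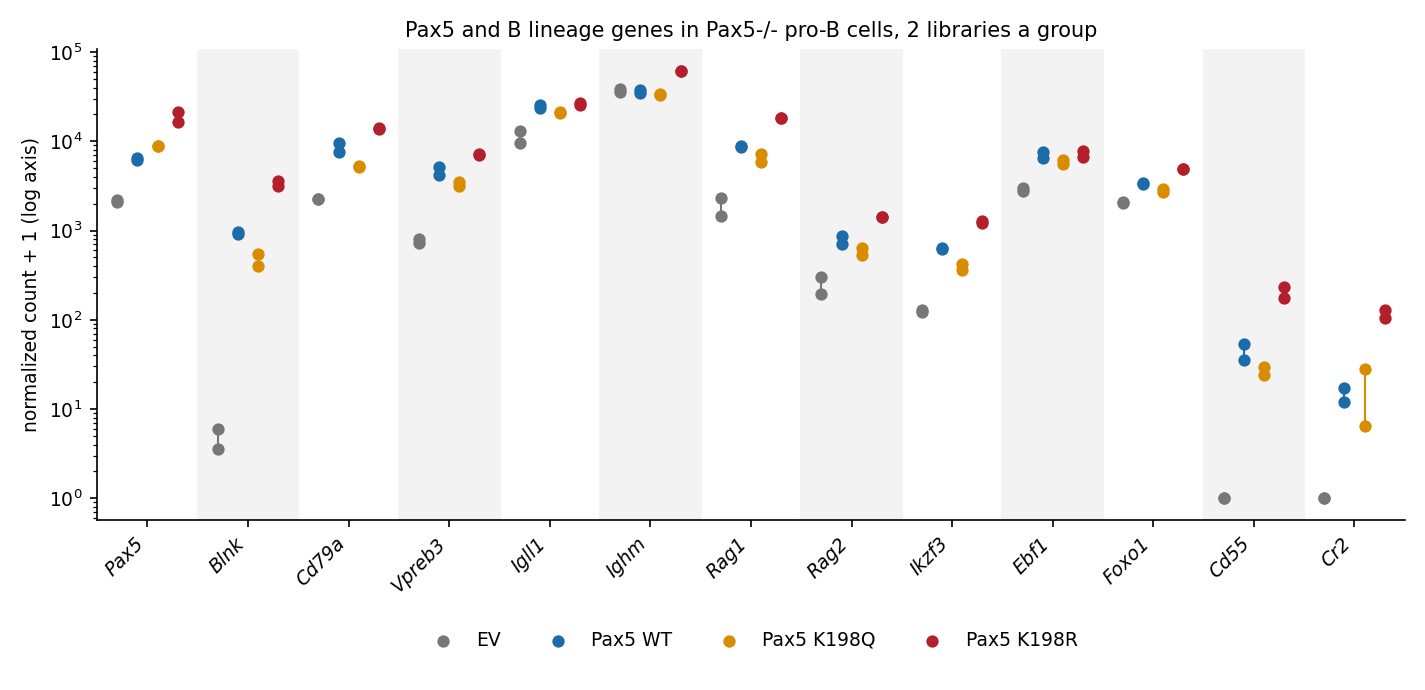
Normalized count + 1 (log axis) of Pax5 and B lineage genes in 8 libraries of Pax5-/- pro-B cells, 1 point a library, with lines joining the 2 libraries of EV (grey), WT (blue), K198Q (orange) and K198R (red). K198R libraries were above EV libraries for each gene drawn, and EV libraries of Cd55 and Cr2 were at 0.

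Genes of later B cell stages did not move one way. Of 18 listed, 16 were tested, with 3 called higher, 4 called lower and a median of -0.76, which was 0.28 over the genes left by a filter at 50 normalized counts. Cd55, which encodes decay-accelerating factor, was at 0 in both EV libraries and at 176 and 231 with K198R, at least 67.9-fold higher against a floor of 3 counts a library (adjusted p = 8.35e-05), with the caution that the near-identical gene Cd55b can share its reads. Cr2, the complement receptor CD21 of mature B cells, was also at 0 in both EV libraries and at 104 and 127 with K198R, at least 38.5-fold higher (adjusted p = 0.00133). Fcrla, an Fc receptor-like gene of B cells, had 9.82 and 3.41 with EV and 62.1 and 89.4 with K198R (log2 fold change 3.45 ± 0.57, adjusted p = 0.00892), a call lost without EV replicate 2 (adjusted p = 0.0514) or K198R replicate 2 (adjusted p = 0.0537). These 3 genes were low or absent in each EV library and present in each K198R library. They met the rule of 10 normalized counts through the K198R libraries alone, so that their rise is in part fixed by the rule. In the other direction, Cd2, an adhesion receptor of lymphocytes, had 267 and 392 with EV and 56.9 and 32.7 with K198R (log2 fold change -2.88, adjusted p = 0.0019), and Cxcr5, a receptor for entry into follicles, had 1458 and 1628 with EV and 567 and 406 with K198R (log2 fold change -1.68, adjusted p = 0.00131), which was under the fold threshold without K198R replicate 2 (-1.44). H2-Aa and H2-Ab1, the chains of a class II molecule, were low throughout, at 34.9 and 47.2 and at 16.6 and 30.2 with EV and at 5.06 and 2.03 and at 3.57 and 2.70 with K198R. Both genes met the rule through the EV libraries alone, so that their fall is in part fixed by it. Both were called lower (adjusted p = 0.0205 and 0.0415), although H2-Aa did not pass without K198R replicate 2 (adjusted p = 0.0923) or either EV replicate (adjusted p = 0.0884 and 0.117), and H2-Ab1 not without any 1 of the 4 libraries (adjusted p between 0.0764 and 0.201). Ms4a1, which encodes CD20 of mature B cells, stayed below the filter at 5.11 and 7.02 with EV and 4.92 and 6.13 with K198R.

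Other genes were among the 12 with the largest increase. Kcnk10, which encodes a potassium channel, had 0.90 and 0 with EV and 998 and 584 with K198R, at least 264-fold higher (adjusted p = 3.86e-05). Arhgef33, which encodes a guanine nucleotide exchange factor, was at 0 in both EV libraries and at 159 and 174 with K198R, at least 55.4-fold higher, and Begain had 2.33 and 0.88 with EV and 134 and 111 with K198R, at least 40.9-fold higher. These genes entered the test through the K198R libraries alone (adjusted p = 2.58e-05 for Arhgef33 and 0.000433 for Begain). Mtcl1, a microtubule protein gene, had 1.06 and 4.03 with EV and 242 and 315 with K198R (log2 fold change 6.43, adjusted p = 0.000311), and likewise entered the test through the K198R libraries alone. Rnase12, of the ribonuclease A family, had 6.73 and 15.5 with EV and 709 and 1064 with K198R (log2 fold change 6.27, adjusted p = 0.000211). Tmem255a, a membrane protein gene, had 26.6 and 30.6 with EV and 1349 and 1621 with K198R (log2 fold change 5.64, adjusted p = 1.02e-05). The increases were seen in both K198R libraries. Atp1b1, the beta subunit of the sodium-potassium pump, had 129 and 106 with EV and 5436 and 6250 with K198R, a 49.3-fold difference (log2 fold change 5.62 ± 0.22, adjusted p = 1.78e-05). The window around its strongest peak, in an intron, and that of Ikzf3 are printed because Atp1b1 is the only 1 of 6 genes examined this way whose window holds GCGTGAC, here as its reverse complement in capitals. Enrichment was 8.26- and 8.83-fold for Atp1b1 and 14.1- and 10.4-fold for Ikzf3.
Atp1b1 intron, chr1:164441775-164441895, minus strand: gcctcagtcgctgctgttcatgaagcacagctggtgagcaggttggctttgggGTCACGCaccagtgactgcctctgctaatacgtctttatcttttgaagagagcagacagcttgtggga
Ikzf3 intron, chr11:98493211-98493331, minus strand: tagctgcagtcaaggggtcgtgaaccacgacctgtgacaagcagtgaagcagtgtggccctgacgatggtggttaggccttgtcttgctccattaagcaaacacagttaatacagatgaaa

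Of 16 homing and adhesion genes, which had a median of -0.34, 2 were called higher and 2 lower. Nedd9, an adhesion docking protein gene, had 1146 and 689 with EV and 3053 and 2107 with K198R (log2 fold change 1.51, adjusted p = 0.0104). Of the genes called lower, Itgb7, the beta7 integrin chain, fell from 1122 and 933 to 215 and 102 (log2 fold change -2.78, adjusted p = 0.0028) and Ccr2, a chemokine receptor, from 576 and 656 to 265 and 136 (log2 fold change -1.69, adjusted p = 0.0117). The size of Nedd9 was under the threshold without K198R replicate 1 (1.24), without EV replicate 2 (1.145), with libraries rescaled to equal totals (1.494) and with quantile normalization (1.488). The call of Ccr2 was lost without K198R replicate 2 (-1.21, adjusted p = 0.0198) or either EV replicate (adjusted p = 0.0609 and 0.0805). Bcar3, an adaptor of integrin signalling, had 18.3 and 20.6 with EV and 730 and 414 with K198R (log2 fold change 4.75 ± 0.36, adjusted p = 0.000433).

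Genes of the T lineage and Notch signalling fell or did not pass. Of 28 listed genes 21 were tested, and 0 were called higher and 5 lower. At the adjusted p 10 passed downward and 0 upward, and the median was -0.97 against 0.01 over all genes. Of the 5, Cd3g, Gata3 and Thy1 were under 10 normalized counts in both K198R libraries and met the rule through EV alone. Their fall, and with it the count, is thus in part fixed by the rule. Cd7, a receptor of T and NK cells, had 735 and 796 with EV and 82.0 and 44.4 with K198R (log2 fold change -3.64 ± 0.29, adjusted p = 0.000518). Trbc1, a T cell receptor beta constant segment that shares reads with Trbc2, had 572 and 550 with EV and 65.8 and 30.2 with K198R (log2 fold change -3.62 ± 0.33, adjusted p = 0.000887). Cd3g, a chain of the CD3 complex, had 25.6 and 24.2 with EV and 1.03 and 1.47 with K198R, at least 8.3-fold lower (adjusted p = 0.00434). For all 3 genes both K198R libraries were far below both EV libraries. Gata3, the factor of T cell specification, was low, at 46.7 and 20.6 with EV and 5.02 and 1.22 with K198R (log2 fold change -3.14 ± 0.79, adjusted p = 0.0461), and its call was lost in most alternatives, for instance without EV replicate 1 (adjusted p = 0.244) or K198R replicate 2 (adjusted p = 0.19). Thy1 fell from 23.9 and 31.6 to 8.09 and 8.15 (log2 fold change -1.64, adjusted p = 0.035), a call lost without any 1 of the 4 libraries (adjusted p between 0.0726 and 0.164). Notch1, the receptor that directs progenitors to the T lineage, was abundant and fell from 12888 and 12524 to 6697 and 5393 (log2 fold change -1.08, adjusted p = 0.00228), and Zap70, Cd247, Cd28 and Trac fell by 0.97, 0.86, 1.33 and 1.08 on the log2 scale, with adjusted p-values of 0.0138, 0.00247, 0.0422 and 0.0095.

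The summed level of the T lineage list was 39497 and 39343 normalized counts with EV and 27578 and 25597 with K198R. Trdc, a gamma-delta T cell receptor constant gene, was below Notch1 with EV and above it with K198R. Defining genes of T cells were at or near 0 in all 4 libraries: Cd3e had at most 1.0, Bcl11b at most 0.99 and Ptcra at most 3.0 normalized counts, and Cd4 and Cd8a had at most 7.92 in EV and at most 0.97 in K198R libraries. In bulk samples, fewer cells of a type and less RNA per cell cannot be told apart. Without K198R replicate 2, the count of genes called lower was 3, and without K198R replicate 1 it was 7.

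Genes of NK and cytotoxic cells were the list with the largest share of genes called. Of 18 listed genes 11 were tested, 8 were called lower and 0 higher, and the median was -2.30. Of the 8, Zbtb16 was under 10 normalized counts in both K198R libraries and met the rule through EV alone. Il18r1, a receptor chain for IL-18, had 5778 and 3941 with EV and 866 and 317 with K198R (log2 fold change -3.18 ± 0.42, adjusted p = 0.00376). Il2rb, the beta chain of the IL-2 and IL-15 receptors, had 955 and 914 with EV and 144 and 80.4 with K198R (log2 fold change -3.11 ± 0.26, adjusted p = 0.000586). Tyrobp, a signalling adaptor of NK and myeloid cells, had 2299 and 1897 with EV and 392 and 158 with K198R (log2 fold change -3.06 ± 0.40, adjusted p = 0.0036). Each was several times lower in both K198R libraries, and replicate 2 was the lower of the pair. Fcer1g, another such adaptor, fell from 3932 and 3998 to 1068 and 473 (-2.48, adjusted p = 0.00326), and Nkg7, a granule protein gene, from 468 and 569 to 109 and 77.7 (-2.48, adjusted p = 0.000887). Id2, an inhibitor of E proteins, fell from 1569 and 996 to 490 and 217 (-1.93, adjusted p = 0.0179), and the receptor gene Klrd1 from 729 and 501 to 194 and 79.7 (-2.27, adjusted p = 0.0192). Both did not pass without EV replicate 1 (adjusted p = 0.12 and 0.126), and without K198R replicate 2 Id2 was under the fold threshold (-1.35) and Klrd1 did not pass (adjusted p = 0.0619), nor did it without EV replicate 2 (adjusted p = 0.0631). Zbtb16, the factor PLZF, had only 20.1 and 26.2 with EV and 3.84 and 3.91 with K198R (-2.30, adjusted p = 0.0379), a call lost without any 1 of the 4 libraries (adjusted p between 0.0832 and 0.168).

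The summed level of the NK list was 15859 and 12999 with EV and 3460 and 1436 with K198R. Il18r1 held the most in EV replicate 1, and Fcer1g in EV replicate 2 and in both K198R libraries. Ncr1, Gzmb, Tbx21 and Eomes, which define mature NK cells, were at 0 in all 4 libraries, and Gzma and Klrk1 were below the filter. The count of genes called lower was 5 without K198R replicate 2 and 8 without replicate 1.

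Myeloid genes were called in both directions. Of 23 listed genes 16 were tested, and 5 were called lower and 1 higher. At the adjusted p 6 passed downward and 1 upward, and the median was -1.23. Of the 5, Csf1r was under 10 normalized counts in both K198R libraries and met the rule through EV alone. Mpo, the myeloperoxidase of granulocyte progenitors, had 189 and 97.7 with EV and 13.1 and 7.0 with K198R (log2 fold change -3.69 ± 0.45, adjusted p = 0.00269). Ly6c2, a surface protein gene of monocytes, fell from 4931 and 3316 to 1362 and 290 (-2.68, adjusted p = 0.0385), and Cebpb, a myeloid factor, from 379 and 555 to 120 and 85.3 (-2.17, adjusted p = 0.00279). Csf1r, the receptor for M-CSF, fell from 59.2 and 22.1 to 6.85 and 2.14 (-2.91, adjusted p = 0.0262), and Cx3cr1, a chemokine receptor, from 166 and 221 to 48.7 and 61.5 (-1.79, adjusted p = 0.00407). K198R libraries were below EV libraries for these 5 genes, but Ly6c2 and Csf1r did not pass without K198R replicate 2 (adjusted p = 0.0639 and 0.111) or without EV replicate 1 (adjusted p = 0.199 and 0.164), nor did Ly6c2 without EV replicate 2 (adjusted p = 0.11). Lyz2, which encodes lysozyme, rose from 49.0 and 34.7 to 218 and 192 (2.28 ± 0.26, adjusted p = 0.00216). The list summed to 26246 and 19601 with EV and to 18237 and 11561 with K198R. Cd33 was the most abundant with EV, whereas Csf2rb and Lilrb4a were above it in both K198R libraries. S100a8, S100a9 and Elane, which define granulocytes, were at 0 in all 4 libraries. Without K198R replicate 2 the count called lower was 3, and without replicate 1 it was 7.

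**Figure D3:**
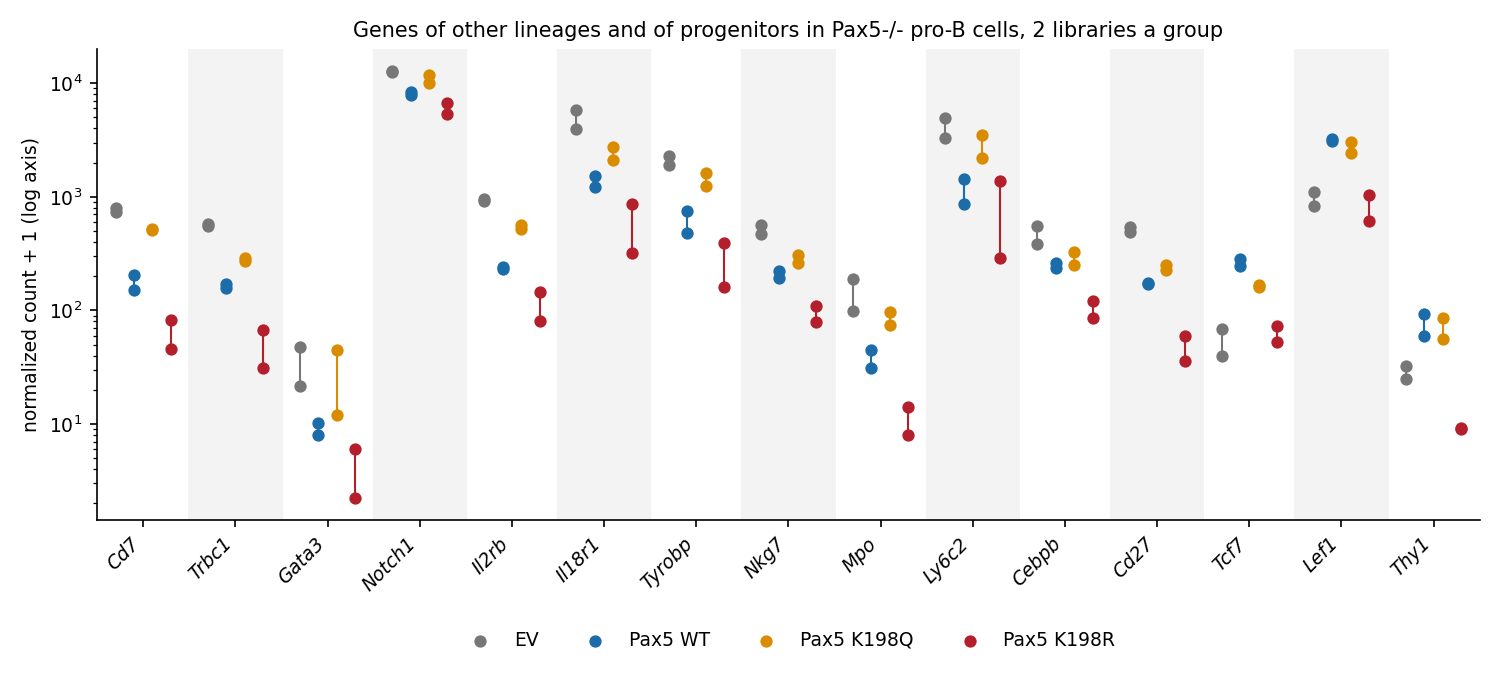
Normalized count + 1 (log axis) of genes of T, NK and myeloid cells and of progenitors in 8 libraries of Pax5-/- pro-B cells, 1 point a library, with lines joining the 2 libraries of a group. From Cd7 to Cd27, K198R (red) had the lowest group mean, whereas Tcf7, Lef1 and Thy1 were higher with WT than with K198R.

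The 12 genes with the largest decrease included adaptors and factors of other lineages. Fyb, an adaptor of T and myeloid cells, had 269 and 272 with EV and 39.1 and 4.37 with K198R (log2 fold change -4.21 ± 0.82, adjusted p = 0.0172), a call lost without either EV replicate (adjusted p = 0.0953 and 0.0896). Tox, a factor of T and innate lymphoid development, had 267 and 191 with EV and 27.9 and 5.11 with K198R (-4.09 ± 0.64, adjusted p = 0.007), and did not pass without EV replicate 1 (adjusted p = 0.0587). Gcsam, a signalling protein gene named for germinal centres, had 263 and 230 with EV and 22.3 and 7.66 with K198R (-4.12 ± 0.46, adjusted p = 0.00198). K198R replicate 2 was the lowest of the 4 libraries for each of the 3 genes. Muc1, a mucin, fell from 133 and 84.1 to 6.72 and 2.62 (-4.33, adjusted p = 0.00317), Drc1, of the ciliary dynein complex, from 68.7 and 150 to 3.56 and 3.60 (-4.49, adjusted p = 0.00269), and Jaml, an adhesion molecule, from 79.5 and 123 to 7.19 and 7.31 (-3.60, adjusted p = 0.00114). Muc1, Drc1 and Jaml met the rule of 10 normalized counts through the EV libraries alone, so that their fall is in part fixed by the rule. Gbp10, Serpinb9d, Dnah6 and Gpr141 were also called lower, with log2 fold changes of -4.56, -3.65, -3.72 and -3.79, and the first 2 belong to families of near-identical genes. Gbp10 and Dnah6 did not pass without EV replicate 1 (adjusted p = 0.123 and 0.21), EV replicate 2 (adjusted p = 0.0766 and 0.087) or K198R replicate 2 (adjusted p = 0.0555 and 0.0679), and Serpinb9d not without EV replicate 2 (adjusted p = 0.055). Tox, though called lower, had a peak of K198R in an intron, and the window around it is printed as an example of binding at a gene that fell, with enrichment of 10.0- and 11.5-fold.
Tox intron, chr4:6924738-6924858, minus strand: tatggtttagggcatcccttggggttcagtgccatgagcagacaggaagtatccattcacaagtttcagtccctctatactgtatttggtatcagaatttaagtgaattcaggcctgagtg

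Progenitor genes were split. Of 13 tested of 16, 1 was called lower and 0 higher, with a median of -0.11. Cd27, a costimulatory receptor, had 487 and 546 with EV and 58.6 and 35.2 with K198R (log2 fold change -3.48 ± 0.26, adjusted p = 0.000383), with no overlap. Flt3, the receptor of early lymphoid progenitors and a known target of repression by Pax5, fell from 10022 and 8343 to 5875 and 5268 (-0.72, adjusted p = 0.0102), Cd93 from 24224 and 27965 to 14389 and 16769 (-0.745, adjusted p = 0.00573) and Mycn, of the Myc family, by 1.41 (adjusted p = 0.0288). Sox4 rose from 8076 and 8060 to 12284 and 10890 (0.52, adjusted p = 0.00986), and Kit had 1933 and 1319 with EV and 3217 and 2143 with K198R, which did not pass (0.72, adjusted p = 0.117).

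Genes of plasma cells, stroma and erythroid cells were measured as marks of other cells. Jchain, the joining chain of secreted antibodies, was very abundant in these cells and fell from 67983 and 65946 to 32232 and 26540 (log2 fold change -1.20, adjusted p = 0.0019), and Creb3l2, a secretory pathway factor, from 211 and 243 to 46.5 and 32.6 (-2.51, adjusted p = 0.00111). Prdm1, the plasma cell factor, was below the filter in all 4 libraries. Stroma genes, which the OP9 layer expresses, summed to 4864 and 6457 with EV and to 4519 and 6038 with K198R. Of 17 tested, 1 was called lower and 0 higher, and 2 passed the adjusted p downward and 0 upward. Fn1 was the most abundant at 1429 and 2339 with EV and 1756 and 2812 with K198R. The gene called was Pdgfrb, which fell from 785 and 718 to 101 and 63.5 (-3.21 ± 0.27, adjusted p = 0.000632), while Dcn and Lum were at 0. Of 11 erythroid genes 3 were tested and 0 passed at either threshold, with 1 at an unadjusted p under 0.05 and a median of 1.18. Of 6 plasma cell genes 4 were tested, with 1 called lower, 0 higher and a median of -0.89, and the stroma median was 0.19, with values from -0.12 to 0.43 when 1 library was left out.

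Lists of general cell functions came next. Of 35 genes of DNA replication and mitosis 0 were called, and 1, the centromere histone gene Cenpa, passed the adjusted p (log2 fold change -0.53, adjusted p = 0.0252). At an unadjusted p under 0.05 there were 2 of 35, both lower, against 13% of all genes in that direction, and the list's median was 0.11. The 2 K198R libraries stood apart here, with list sums of 177304 and 267173 against 175317 and 212484 with EV and with Mki67, a mark of dividing cells, at 21297 and 34885 against 22792 and 22962. The median was 0.49 without K198R replicate 1 and -0.26 without K198R replicate 2. Of 22 cytokine receptor and STAT genes, with a median of -0.04, 1 was called, Il2rb of the NK list. Il2ra, the alpha chain of the IL-2 receptor, which pre-B cells carry, rose from 5980 and 5550 to 9281 and 8415 (0.62, adjusted p = 0.00529), Stat5b by 0.38 (adjusted p = 0.0345), and Stat3 fell from 6661 and 6835 to 4229 and 4045 (-0.71, adjusted p = 0.00539). Il7r, the receptor for the IL-7 in the medium, had 1286 and 1293 with EV and 2019 and 1800 with K198R and did not pass (0.56, adjusted p = 0.0621). Myc had 17025 and 12712 with EV and 21450 and 13444 with K198R (0.21, adjusted p = 0.723), with overlapping groups. Among 18 genes of Myc, G1 and ERK feedback, with a median of 0.18, 2 were called lower and 1 higher. Dusp4 and Spry1, inhibitors of ERK signalling, fell by 1.76 and 1.53 (adjusted p = 0.00643 and 0.00216). Dusp4 did not pass without EV replicate 1 (adjusted p = 0.0502), and Spry1 was under the fold threshold without EV replicate 1 (-1.493), without K198R replicate 2 (-1.345) and with quantile normalization (-1.461). Cdkn2a, an inhibitor of the cell cycle, rose from 63.2 and 88.3 to 168 and 313 (1.60, adjusted p = 0.0277), a call lost without K198R replicate 2 (adjusted p = 0.111) or either EV replicate (adjusted p = 0.159 and 0.0708).

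Of 12 tested BCL2 family genes, with a median near 0, 1 was called. Pmaip1, the pro-apoptotic protein Noxa, fell from 298 and 245 to 109 and 58.5 (log2 fold change -1.75 ± 0.30, adjusted p = 0.0105), and Bcl2l11, the pro-apoptotic protein Bim, from 15722 and 15144 to 11780 and 9187 (-0.57, adjusted p = 0.0412). Without K198R replicate 2 the fold of Pmaip1 was under the threshold (-1.30, adjusted p = 0.0237), and without EV replicate 1 it did not pass (adjusted p = 0.0785). Of 13 tested genes of glucose and energy metabolism 0 were called and 1 passed the adjusted p, Txnip, an inhibitor of glucose uptake, which fell from 9522 and 7126 to 5406 and 5838 (-0.55, adjusted p = 0.0489), and the median was -0.19. Of 11 acetyltransferase and deacetylase genes 0 passed at either threshold and 2 at an unadjusted p under 0.05, 1 in each direction. The median was -0.02, with log2 fold changes of -0.05 for Ep300 and -0.10 for Hdac1. The upward gene was Kat2b, which encodes the acetyltransferase PCAF, with 636 and 599 with EV and 955 and 762 with K198R (0.47, adjusted p = 0.0878). Atf3, a stress-induced factor, rose from 88.3 and 111 to 383 and 216 (1.53, adjusted p = 0.0345), a call lost without K198R replicate 1 (adjusted p = 0.111) or either EV replicate (adjusted p = 0.182 and 0.1), and Jun rose by 1.18 (adjusted p = 0.00211), the only 2 past the adjusted p of 12 stress and immediate early genes, whose median was 0.03. The 4 tested genes of the Y chromosome had like levels in all 4 libraries, with 0 past an unadjusted p of 0.05. Of the 40 genes that the study names for Pax5-/- cells 38 were tested, 9 called higher and 4 lower with a median of 0.21; the study chose them on measurements of these cells, expression or peaks, so that their count is no independent evidence. The plot of log2 fold changes by list shows the spread in each.

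**Figure D4:**
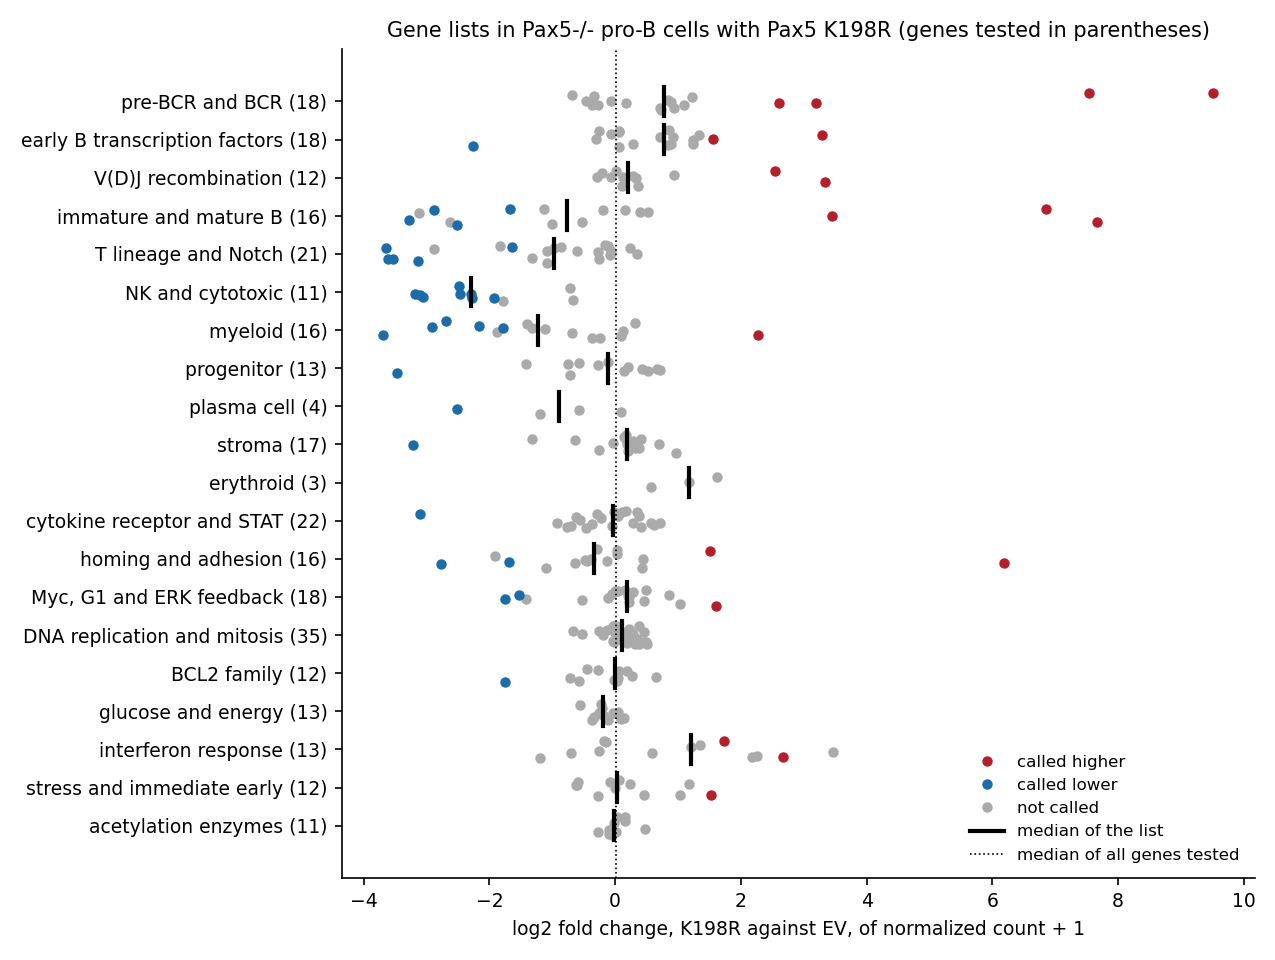
Log2 fold change of K198R against EV (horizontal axis) for the tested genes of 20 lists, 1 point a gene, red where called higher, blue where called lower and grey otherwise. Black bars are the medians, which run from -2.30 for NK and cytotoxic genes to 1.21 for interferon response genes, and the dotted line is the median of all genes, 0.01.

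The 2 K198R libraries differed in interferon response genes. Replicate 1 stood above all other libraries for Rsad2, with 627 against 42.9 in replicate 2 and 36.6 and 35.0 with EV, and for Ifit3, with 157 against 24.4 in replicate 2 and 10.0 and 1.99 with EV. Irf7 had 758 and 94.1 with K198R and 453 and 417 with EV, so that the 2 K198R libraries lay on opposite sides of the EV libraries. None of these passed (adjusted p = 0.276, 0.0634 and 0.681). The genes called were guanylate-binding protein genes, Gbp2, which rose from 77.5 and 98.4 to 695 and 449 (log2 fold change 2.66 ± 0.24, adjusted p = 0.000872), and Gbp3, which rose from 497 and 394 to 1938 and 1120 (1.73 ± 0.25, adjusted p = 0.00512). For these the groups did not overlap, and without K198R replicate 1 the size of Gbp3 was under the threshold (1.34, adjusted p = 0.00518). Of 13 tested genes 2 were called higher and 0 lower with both libraries, 1 and 2 without K198R replicate 1, and 7 and 0 without replicate 2. The median of 1.21 was -0.28 without replicate 1. With WT, Gbp2 had 583 and 677 normalized counts and Gbp3 1222 and 1143. Neither passed between K198R and WT (log2 difference -0.17, adjusted p = 0.915, and 0.32, adjusted p = 0.76). Ifit3 had 6.03 and 7.97 with WT. Bst2 was the most abundant gene of the list with EV and Gbp7 with K198R. The list summed to 7888 and 7007 with EV and to 14124 and 8136 with K198R. The part of this difference between the libraries in other results was not tested.

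The next question was where K198R differed from the unmutated form. Against WT, 37 genes (0.287%) were called higher and 158 (1.23%) lower with K198R, in a comparison in which Pax5 itself was higher by 1.57 on the log2 scale (adjusted p = 0.00299). More were called higher with the replicate number as a block, as given in the section on processing. Against EV, WT raised 141 genes (1.09%) and lowered 34 (0.264%), and since this comparison and that of K198R use the same EV libraries, the levels are given side by side. Blnk had 915 and 954 with WT and 547 and 397 with K198Q, both below K198R (log2 difference of K198R from WT 1.84, adjusted p = 0.0158). Cd79a had 7561 and 9491 with WT and 5321 and 5140 with K198Q, and differed between K198R and WT by 0.71 (adjusted p = 0.021). K198R libraries were the highest of the 8 libraries for both genes. Rag1 and Ikzf3 were higher than with WT by 1.06 (adjusted p = 0.038) and 0.96 (adjusted p = 0.0149), and Foxo1 by 0.54 (adjusted p = 0.019). Ebf1, Igll1 and Arhgef33 did not pass between K198R and WT, with 95% intervals of the log2 difference from -0.23 to 0.33 for Ebf1 and from -0.24 to 0.42 for Igll1. The count called lower against WT was 31 and 12 without WT replicate 1 and 2, 312 without K198R replicate 1 and 80 without K198R replicate 2, and that called higher was 17 and 8 without WT replicate 1 and 2.

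Some genes were lower with K198R than with WT. Lef1, a factor of the Wnt pathway expressed in pro-B cells, had 1092 and 830 with EV, 1042 and 611 with K198R, 3114 and 3196 with WT and 3038 and 2430 with K198Q. The EV and K198R groups overlapped and the other groups lay above both, with a log2 difference of K198R from WT of -1.98 (adjusted p = 0.0108) and of WT from EV of 1.73 (adjusted p = 0.0137). Tcf7, its relative, had 38.9 and 67.4 with EV, 71.9 and 51.4 with K198R and 246 and 284 with WT (-2.10, adjusted p = 0.0161), which was above EV (2.35, adjusted p = 0.00871). Pmaip1 had 426 and 573 with WT and 554 and 504 with K198Q, and K198R was below WT (-2.61, adjusted p = 0.00883) and EV, while WT did not pass against EV (0.87, adjusted p = 0.221). Thy1 had 59.0 and 92.5 with WT (-3.04, adjusted p = 0.0108) and Timp3, an inhibitor of matrix proteases that is on the stroma list, had 652 and 596 with EV, 881 and 1242 with WT and 307 and 200 with K198R (-2.07 from WT, adjusted p = 0.0104). Il7r had 3614 and 3058 with WT, above the 2019 and 1800 of K198R (-0.80, adjusted p = 0.0403). Cacna1h, a calcium channel gene chosen after its values were seen, had 23.2 and 14.3 with EV, 40.1 and 114 with K198R and 845 and 1116 with WT (-3.82 from WT, adjusted p = 0.0136). Its K198R libraries were above the EV libraries but did not pass (1.835, adjusted p = 0.0727), as was so for Il7r. Another 4 genes, also chosen after their values were seen, were higher with K198R than with WT. Siglecg, an inhibitory receptor of B cells, had 23.7 and 32.0 with EV, 453 and 394 with K198R, 25.3 and 19.6 with WT and 21.7 and 20.8 with K198Q, so that it was raised in the K198R libraries alone (4.19 from WT, adjusted p = 0.00299). Col5a2, a collagen chain gene, had 459 and 452 with EV, 7463 and 7260 with K198R and 1057 and 929 with WT (2.89 from WT, adjusted p = 0.00037), which was itself above EV (1.12, adjusted p = 0.00474). Ighg2b, a heavy chain constant gene, was at 0 with EV and at 337 and 205 with K198R, with 2.15 and 0 with WT (adjusted p = 0.00563). Ighg2b entered the test through the K198R libraries alone. Bank1, a B cell scaffold protein gene, had 203 and 76.4 with EV, 408 and 347 with K198R and 75.8 and 70.5 with WT (2.35 from WT, adjusted p = 0.0313), and did not pass between K198R and EV (1.59, adjusted p = 0.0558).

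Against K198Q, 62 genes (0.481%) were called higher and 251 (1.95%) lower with K198R, in a comparison in which Pax5 was higher by 1.07 (adjusted p = 0.00539). A block on the replicate number raised the count called higher, as given in the section on processing. Cd7 had 523 and 510 with K198Q and 203 and 150 with WT, so that the groups were in the order EV, K198Q, WT and K198R from high to low, with K198R below K198Q by 3.08 (adjusted p = 0.00362) and below WT by 1.52 (adjusted p = 0.0404) on the log2 scale. Cd27, with 249 and 224 for K198Q and 173 and 168 for WT, and Trbc1, with 289 and 273 for K198Q and 169 and 156 for WT, had the same order, and K198R differed from both forms (adjusted p = 0.00539 and 0.0132 for Cd27, 0.00762 and 0.0309 for Trbc1). Il2rb did so from K198Q (-2.33, adjusted p = 0.00539) but not from WT (-1.12, adjusted p = 0.0705), and Tyrobp likewise (-2.50, adjusted p = 0.0156, and -1.25, adjusted p = 0.209). The count called lower against K198Q was 47 and 11 without K198Q replicate 1 and 2, 436 without K198R replicate 1 and 128 without K198R replicate 2, and that called higher 24 and 14 without K198Q replicate 1 and 2.

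K198R and an empty vector were also expressed in cultured Sirt7-/- pro-B cells, which have their own Pax5. Their table was normalized separately, so that levels are set side by side only. The cells differed in more than the genotype, since the methods place Sirt7-/- mice on the 129Sv and Pax5-/- mice on the C57BL/6 background, and the Y-linked gene Ddx3y had 5.67 and 13.8 with EV and 5.46 and 36.8 with K198R in Sirt7-/- cells against 4625 and 4053 with EV in Pax5-/- cells. By the methods, Sirt7-/- pro-B cells came from bone marrow and Pax5-/- progenitors from fetal livers. Strain, sex, source and genotype cannot be told apart between the 2 kinds of cells. Pax5 had 25995 and 37114 normalized counts with EV and 38690 and 45426 with K198R there, which did not pass (log2 fold change 0.43, adjusted p = 0.241). Sirt7 had 336 and 387 with EV and 325 and 355 with K198R, against 1324 and 905 in wild-type cells with EV. Of 13651 genes tested, 132 (0.967%) were called higher and 214 (1.57%) lower. These counts rested on all 4 libraries, with 23 and 28 without EV replicate 1, 38 and 52 without EV replicate 2, 46 and 126 without K198R replicate 1 and 12 and 39 without K198R replicate 2. With the replicate number as a block more genes were called higher, and without a trend of the variance fewer lower, as given in the section on processing. Of the 186 genes called higher in Pax5-/- cells 170 were tested in Sirt7-/- cells, where at an adjusted p under 0.05, which 2.09% of all genes passed upward and 2.74% downward, 17 (10.0%) were higher and 26 (15.3%) lower. Of the 413 called lower 273 were tested, of which 22 (8.06%) were lower and 9 (3.30%) higher. Across 12208 genes tested in both tables, which are not independent replicates, the log2 fold changes had a Pearson correlation of -0.03. Blnk had 12671 and 12685 with EV and 9600 and 8783 with K198R in Sirt7-/- cells, which did not pass the test (adjusted p = 0.0831), and was thus already on in the EV libraries of these cells. Cd79a rose there, by 0.57 (adjusted p = 0.022), and Bcar3 by 1.49 (adjusted p = 0.0122).

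Binding of K198R was measured in Pax5-/- cells by chromatin immunoprecipitation in 2 replicates, from which the authors called 12158 and 13997 peaks over input. The list labelled as replicate 2 holds peak names with a different replicate number inside. Of these peaks, 9347 of replicate 1 overlapped a peak of replicate 2 by at least 1 base and were used. A peak lay in the gene or in the 2 kb before its start for 101 of 184 genes called higher whose position is known (54.9%, 95% exact binomial interval 47.4% to 62.2%) and for 87 of 412 called lower (21.1%, 17.3% to 25.4%), against 5481 of 12822 genes tested (42.7%, 41.9% to 43.6%). Within 1 kb of the start alone the shares were 29.9%, 7.52% and 33.4%. Genes differed in level, which moved with these shares. With the genes in 3 equal groups by mean level, a peak in the lowest group was found for 49.2% of 130 genes called higher, 18.6% of 317 called lower and 24.8% of all, and in the highest group for 87.5% of 24, 25.0% of 20 and 56.7%. Within 1 kb of the start, genes called higher had a peak for 23.1% against 15.5% of all genes in the lowest group, 30.0% against 37.9% in the middle one and 66.7% against 46.8% in the highest. The median gene was 27.6 kb long among those called higher, 29.6 kb among those called lower and 21.7 kb among all. Intervals cover counting error only.

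**Figure D5:**
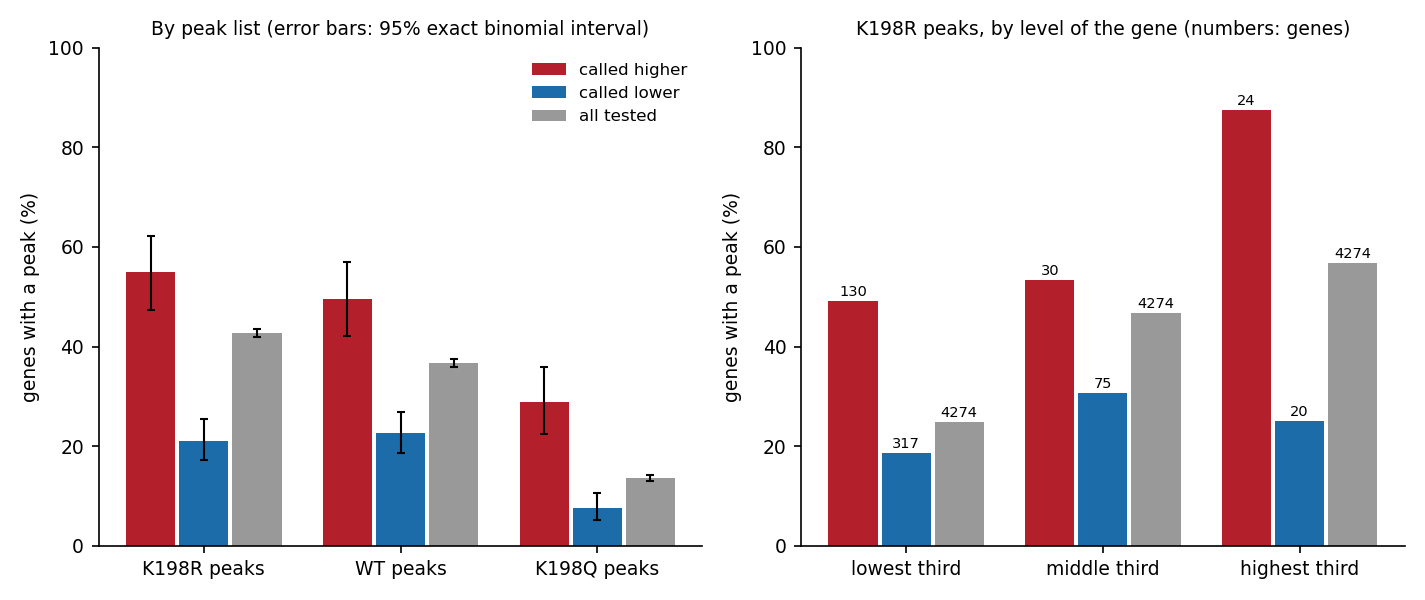
Left, percent of genes with a peak in the gene or 2 kb upstream, by peak list, for genes called higher (red), called lower (blue) and all tested (grey) in the comparison of K198R with EV; error bars are 95% exact binomial intervals. Right, the same for K198R peaks for 3 equal groups of genes by mean level, with the number of genes over each bar; genes called lower were below all tested genes in each group, and genes called higher above.

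In the gene or the 2 kb before it, peaks of the other forms divided the genes in the same way, at 49.5% of genes called higher, 22.6% called lower and 36.6% of all for WT, and at 28.8%, 7.52% and 13.6% for K198Q. Within 1 kb of the start the shares were 22.8%, 7.52% and 27.5% for WT and 11.4%, 2.18% and 9.21% for K198Q. Of 213 K198R peaks at genes called higher 67.6% overlapped a WT peak and 34.3% a K198Q peak, of 124 at genes called lower 71.0% and 28.2%, and of 7275 at genes not called 67.1% and 25.1%. No K198R peak of both replicates lay in the window of Cd55, Siglecg, Vpreb3, Tmem255a or Rnase12 among the raised genes, or of Cd7, Gata3, Cd27, Csf1r, Fyb, Jchain or Id2 among the lowered. The letters GCGTGAC, searched on both strands, were in 407 of the 9347 windows of 121 bases around K198R summits (4.35%), in 0.278% of windows of the same length 5 kb downstream and in 0.214% of those 5 kb upstream. In promoters of 300 bases from RefSeq they were in 687 of 32851 (2.09%). Windows at peaks shared with WT held them in 5.26% and those not shared in 2.57%. At peaks of genes called higher 6 of 205 windows held them (2.93%), of genes called lower 8 of 123 (6.50%) and of genes not called 4.46%. A match is a description of the sequence and no measure of binding.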

How the data were processed

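RNA-seq reads were quantified by the authors with Salmon against mm10, imported with Tximeta and normalized by DESeq2's median of ratios. The deposited table gives these normalized counts per gene, a signal whose values are not whole, so that reads could not be recovered and no count model was used. ChIP–seq reads were aligned by the authors with Bowtie2, and MACS2 peaks over input were deposited 1 list per replicate, with fold enrichment at the summit as a ratio and −log10 of the q-value for each. Versions are not given in the sources used here. Of the per-sample columns, 8 of sorted cells were not used.

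Values were tested as log2(normalized count + 1) with limma 3.58.1 in R 4.3.3, with 4 groups of 2 libraries in 1 fit, a trend of the variance, and Benjamini-Hochberg adjustment over the 12893 genes of the rule, whose second-highest library lay at 10.01 for the gene just inside the limit of 10 (Olfr71) and at 9.997 for the gene just outside (Gm17195). Genes were called when the adjusted p was under 0.05 and the log2 fold change 1.5 or more in size. Exact tests of 2 against 2 libraries cannot give a p under 0.33 and were not used. The table of Sirt7-/- cells was fitted in the same way, apart. The procedure was tested on simulated data, and the outcome is not reported here. A fold change on this scale understates the change of low genes, and a lower bound against a floor of 3 counts is given for groups with no library above it. Positions came from GENCODE M21 (GRCm38), which matched 12835 of the 12893 genes by ID. Sequence windows of GRCm38 were read with samtools 1.23.1. Motif matches were counted on both strands.

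Genes were named as follows: Pax5 and Sirt7, genes the study names for these cells, members of 23 gene lists (up to 5 a list with all values), and the 12 called genes with the largest increase and the 12 with the largest decrease whose groups do not overlap, without gene models, receptor segments and genes under 100 normalized counts in the higher group. Genes outside these rules are marked as chosen after their values were seen. Members and lists were chosen with earlier results of these data known. Alternatives covered the pseudocount, filter, scaling, variance model, libraries in the fit, call rule, replicate block, each replicate left out, and the peak set and window. Protein sequences and Xist were not analysed here, and some members of the lists, counted in their totals, are not reported here.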

Additional observations from a re-analysis of the deposited data

Results flagged for a closer look

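Among the named genes, those whose K198R effect passed the adjusted p in opposite directions in Pax5-/- and in Sirt7-/- cells, with every K198R library on one side of every EV library in the former and on the other side in the latter, are listed here, and the difference between the 2 cell types itself was not tested. The tables were normalized separately, and the cells differed in strain, in Y-linked genes and, by the methods, in source. Vpreb3 had a log2 fold change of 3.19 in Pax5-/- and of -1.355 in Sirt7-/- cells, where it had 11064 and 11029 normalized counts with EV and 3822 and 4876 with K198R. For Kcnk10 the values were 9.11 and -2.07, and for the lysozyme gene Lyz2 2.28 and -2.36. H2-Aa went the other way, with -3.28 in Pax5-/- and 4.30 in Sirt7-/- cells, where it had 27.4 and 60.3 with EV and 439 and 1526 with K198R. H2-Ab1 did likewise, with -2.51 and 3.43. In Pax5-/- cells Kcnk10 met the rule of 10 normalized counts through the K198R libraries alone, and H2-Aa and H2-Ab1 through the EV libraries alone. The direction of these genes in Pax5-/- cells is thus in part fixed by the rule. In Pax5-/- cells the calls of H2-Aa and H2-Ab1 were lost with libraries left out, as given above, and that of H2-Ab1 under other alternatives too. Of genes that passed the adjusted p in Pax5-/- cells without reaching the fold threshold, Il2ra changed by 0.62 there and by -2.61 in Sirt7-/- cells, where it had 538 and 416 with EV and 74.7 and 79.2 with K198R, Gbp7 by 1.35 and -1.035, and Emb, a membrane protein gene of the homing list, by -1.10 and 1.39.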

How the results depend on the processing

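The precision is limited by 2 libraries a group, and the normalized values hide the depth of each gene. The fold change of no called named gene turned its sign under the alternatives run, but the median of 11 of 23 lists did under at least 1 of them. That of later B cell genes was 0.28 with a filter at 50 normalized counts and that of interferon genes -0.28 without K198R replicate 1, while DNA replication and mitosis ran from -0.26 to 0.49, stroma from -0.12 to 0.43, progenitor from -0.44 to 0.004, cytokine receptors and STATs from -0.295 to 0.054, glucose and energy from -0.255 to 0.095, Myc, G1 and ERK feedback from -0.059 to 0.20, and BCL2 family, stress and Y-linked genes stayed between -0.17 and 0.097. Interferon genes went from 2 called higher and 0 lower to 1 and 2 without K198R replicate 1. Without the fold threshold, the counts were 511 higher and 804 lower against EV, 101 and 260 against WT, 193 and 450 against K198Q, and 285 and 374 in Sirt7-/- cells. With 1 replicate left out, the lone library of a group being assumed to vary like the other groups, the counts ranged from 134 to 168 higher and from 188 to 560 lower against EV, from 8 to 35 and from 12 to 312 against WT, from 14 to 51 and from 11 to 436 against K198Q, and from 12 to 46 and from 28 to 126 in Sirt7-/- cells. The labels do not say that a replicate number marks a day, although the methods state that replicates were made on different days and same-numbered libraries deviated together in all 6 pairs of groups (correlations from 0.28 to 0.43 over 12893 genes, 0.30 for EV and K198R). In Sirt7-/- cells the correlation between EV and K198R was 0.29 over 13651 genes. With the replicate number as a block the count against EV was 225 higher and 511 lower, and all 186 and 413 calls were kept; the counts called higher were 61 against WT, 94 against K198Q and 249 in Sirt7-/- cells. Without a trend of the variance 136 genes were lower in Sirt7-/- cells. The share of genes with a K198R peak was 29.9% (higher), 7.52% (lower) and 33.4% (all) at promoters, 26.5% (lower) and 51.4% (all) with replicate 1 peaks alone, 30.3% (lower) and 53.9% (all) with replicate 2 peaks alone, and for all genes 39.1% at q under 0.0001 and 46.2% with 10 kb upstream. Of the values of named genes under the alternatives, 1896 kept their side of the threshold or stayed within the spread, 101 lost and 21 gained the call, and 36 moved by more than the spread. Besides the libraries left out, calls of named genes were lost without a trend of the variance (10: Atf3, Cdkn2a, Dnah6, Gata3, Gbp10, Id2, Irf4, Klrd1, Ly6c2 and Siglech), with only the EV and K198R libraries in the fit (10: Atf3, Cdkn2a, Csf1r, Dnah6, Gata3, H2-Ab1, Irf4, Ly6c2, Thy1 and Zbtb16), without a filter on low values (8: Atf3, Dnah6, Gata3, H2-Ab1, Irf4, Ly6c2, Thy1 and Zbtb16), with quantile normalization (6: Gata3, H2-Ab1, Nedd9, Spry1, Thy1 and Zbtb16), with a pseudocount of 5 (4: Atf3, Gata3, Thy1 and Zbtb16) and with libraries rescaled to equal totals (1: Nedd9). Runs of 5 lists without a K198R replicate were chosen after seeing the data.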

Other observations

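Siglech, a receptor of plasmacytoid dendritic cells chosen after its values were seen, had 2160 and 1439 normalized counts with EV, 366 and 76.2 with K198R, 713 and 381 with WT and 1130 and 712 with K198Q. Both K198R libraries were below both EV libraries (log2 fold change -3.39 ± 0.67, limma, adjusted p = 0.0181), a call lost without either EV replicate (adjusted p = 0.116 and 0.0705). Bst2, another gene abundant in those cells and also induced by interferon, had 2726 and 2634 with EV and 1761 and 778 with K198R and did not pass (-1.19, adjusted p = 0.0528). Trdc, an abundant gene of the T lineage list, had 11648 and 11197 with EV and 9654 and 9425 with K198R (-0.26, adjusted p = 0.147) but 7348 and 6375 with WT, below K198R (log2 difference of K198R from WT 0.48, adjusted p = 0.045). Cd72, a coreceptor that restrains the B cell receptor, had 289 and 251 with EV, 197 and 141 with K198R and 418 and 428 with WT, so that K198R was below WT (-1.34, adjusted p = 0.019) while its difference from EV did not pass (-0.69, adjusted p = 0.0838).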
